A study of Mus musculus with 8 samples.

Results

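The ubiquitin-conjugating (E2) enzymes are the middle step of ubiquitination. The members described here are the rows of the count table whose Ensembl identifier belongs to a protein-coding mouse gene with a symbol beginning with Ube2 and a further letter. There were 38 such genes among 50686 identifiers. GENCODE names 36 of them in the mm9 annotation, and the other two, Ube2d2b and Ube2dnl2, were named through RefSeq synonyms. Ube2cbp carries the prefix but encodes an E3-like protein, and was kept because it is protein coding and has such a symbol. Ube2nl is protein coding in GENCODE and a pseudogene in RefSeq, and was kept on the GENCODE type.

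An E1 enzyme activates ubiquitin, an E2 carries it as a thioester on its catalytic cysteine, and an E3 ligase brings the loaded E2 to a substrate. The E2 often sets which kind of chain is built. Some E2s serve a single ligase complex, such as Ube2c and Ube2s with the anaphase-promoting complex in mitosis, whereas the Ube2d enzymes work with many ligases. A few members carry other modifiers, with Ube2m and Ube2f used for NEDD8 and Ube2l6 mainly for ISG15.

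Mouse embryonic stem cells (mESCs) of 2 genotypes, wild type (R9wt) and Rad9-/- (R9del), were grown on board the SJ-10 satellite (Space) or in the same kind of payload on the ground (Ground) for 1 day (D1) or 5 days (D5). Rad9 encodes a checkpoint and DNA repair protein. Each of the 8 combinations was sequenced as 1 library, so no condition had a replicate, and each group below pools 4 libraries that differ in the other variables. All cultures were fixed in RNAlater inside the device, which had no gas control, and RNA was extracted later with TRIzol. Devices for D1 and for D5 formed separate groups, each with its own temperature control, and were seeded with different numbers of cells, so culture duration and device group cannot be told apart. Within the D5 cultures, R9wt and R9del were also seeded at different numbers. The paper lists microgravity, space radiation, other stress in space and vibration at launch and return as differences between space and ground. These are joined in location and cannot be told apart. The question was how location, genotype and culture duration each relate to the transcript levels of the E2 genes.

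Library totals lay between 58238440 and 96416907 counts, and a count of 0 allows up to 3 counts, which is at most 0.0503 CPM (counts scaled to library size) in any library and covers counting error only. Rad9 itself had 70.3 to 93.4 CPM in the R9wt libraries and 20.8 to 28.6 CPM in the R9del libraries, so all 8 lay on the side their labels give. Between 1461 and 2095 counts remained in the R9del libraries, and a count over the whole gene does not show which part was deleted. Rad9 fell by 1.77 on the log2 scale (SE 0.21, edgeR quasi-likelihood adjusted p = 0.0269). All 10 pluripotency markers listed were detected, with a summed level of 4815 to 7129 CPM in space and 5916 to 8646 CPM on the ground, and Pou5f1 was at 958 CPM or more in every library. The 8 fibroblast feeder markers summed to 27.5 to 66.2 CPM in space and 24.9 to 61.1 CPM on the ground. The 6 primitive endoderm markers summed to 16.9 to 220.03 CPM in space and 30.1 to 66.2 CPM on the ground, with the 2 highest sums in the space D5 libraries. Among these markers edgeR called Sox2 lower (log2 fold change -0.97, adjusted p = 0.0269), Esrrb higher (1.16, adjusted p = 0.00796) and Sox17 lower (-3.92, adjusted p = 0.0181) in space. Sox17 was the only one of the 6 endoderm markers called, and the median of the 6 was 1.26, on the other side of 0. The part of these cell types in any difference below was not tested. In bulk RNA, fewer cells of a type and less RNA per cell cannot be told apart.

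The stretches of 250 bases just before the transcription start are shown for 4 members, since 3 of them (Ube2s, Ube2g1 and Ube2d1) were lower together in space and the fourth, Ube2c, works beside Ube2s in the same ligase complex but was not called. They come from RefSeq (GRCm38.p6), run 5′ to 3′ on the gene's strand, and each matched its mm9 chromosome at 1 place, which is the position given. Capitals mark every match on either strand to the 6 motifs searched, which were CCAAT, the cell cycle element TTTGAA, the E-box CACGTG, the GC box GGGCGG, the TATA-box core TATAAA and the cyclic AMP element TGACGTCA.
Ube2s (mm9 chr7:4763943-4764192, minus strand): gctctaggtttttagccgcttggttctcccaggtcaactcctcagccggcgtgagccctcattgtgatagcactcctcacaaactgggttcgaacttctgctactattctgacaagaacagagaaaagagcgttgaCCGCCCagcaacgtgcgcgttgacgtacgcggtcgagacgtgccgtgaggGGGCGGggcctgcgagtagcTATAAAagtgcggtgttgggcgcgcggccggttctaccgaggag
Ube2c (mm9 chr2:164595179-164595428, plus strand): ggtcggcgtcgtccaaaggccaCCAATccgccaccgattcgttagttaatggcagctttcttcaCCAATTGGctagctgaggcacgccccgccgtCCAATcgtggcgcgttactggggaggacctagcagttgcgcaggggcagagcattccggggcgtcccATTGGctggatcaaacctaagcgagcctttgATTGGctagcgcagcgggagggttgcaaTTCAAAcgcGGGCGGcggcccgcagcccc
Ube2g1 (mm9 chr11:72420513-72420762, plus strand): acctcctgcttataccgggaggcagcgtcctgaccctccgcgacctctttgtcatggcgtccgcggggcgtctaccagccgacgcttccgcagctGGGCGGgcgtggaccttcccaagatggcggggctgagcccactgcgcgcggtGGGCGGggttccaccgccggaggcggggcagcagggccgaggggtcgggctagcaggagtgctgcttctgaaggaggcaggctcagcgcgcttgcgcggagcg
Ube2d1 (mm9 chr10:70748011-70748260, minus strand): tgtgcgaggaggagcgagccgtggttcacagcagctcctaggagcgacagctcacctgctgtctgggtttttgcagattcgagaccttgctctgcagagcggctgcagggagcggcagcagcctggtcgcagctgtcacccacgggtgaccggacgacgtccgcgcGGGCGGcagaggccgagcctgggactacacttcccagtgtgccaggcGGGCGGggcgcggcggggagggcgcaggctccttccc

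The Ube2c window held 6 matches to CCAAT, 1 to TTTGAA at 29 to 24 bases before the start and 1 to GGGCGG. The CCAAT matches that lie between 186 and 179 bases before the start are on opposite strands and overlap. The last 31 bases of this window lie inside the GENCODE gene, whose annotated start is further upstream. The Ube2s window held neither CCAAT nor TTTGAA, but had 2 GC boxes and a TATAAA at 44 to 39 bases before the start. Ube2g1 and Ube2d1 each had 2 GC boxes and no other match. A window was found for 30 of the 38 members. Among all 32851 windows of this length, GGGCGG was present in 32.7%, CCAAT in 33.8%, TTTGAA in 16%, TATAAA in 12.4%, CACGTG in 6.02% and TGACGTCA in 1.55%. GGGCGG was present for 5 of 5 members that were called lower in space and had a window, and for 17 of the 25 others. CCAAT was present for 1 of those 5 and 8 of the 25 others. A match to these letters is a description of the window and does not show that a factor binds there.

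Transcript levels of the members spanned a wide range. Levels between genes are compared only per exon length, as CPM per kilobase of GENCODE exon, averaged over the 8 libraries. Ube2s, which extends ubiquitin chains on substrates of the anaphase-promoting complex, was highest at 304.05 ± 308.5 (SD, n = 8 libraries). Its range of 21.6 to 761 shows that this mean joins very different libraries. Ube2d3 followed at 152 ± 93.7 and Ube2t, the E2 of the Fanconi anaemia pathway, at 101 ± 70.05. Ube2b and Ube2c were next at 89.9 ± 12.2 and 82.7 ± 18.9, and the 5 levels overlapped across libraries. The order was not the same at both locations, since Ube2s averaged 578 ± 150.2 on the ground and 30.6 ± 10.5 in space, while Ube2b averaged 96.4 ± 9.35 and 83.4 ± 12.1.

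Among the least abundant members, Ube2dnl2 had 3 counts in 1 library (Space R9wt D1) and 0 in the others. Ube2u, Ube2nl and Ube2d2b also had too few counts for the test between groups. Ube2u had 22 counts in Space R9del D1, 19 in Space R9del D5, 4 in Ground R9wt D1 and 0 in the other libraries. Its 2 highest libraries were thus both R9del cells in space, at 0.313 and 0.319 CPM. The remaining 34 members passed the filter on low counts and were tested.

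**Figure D1:**
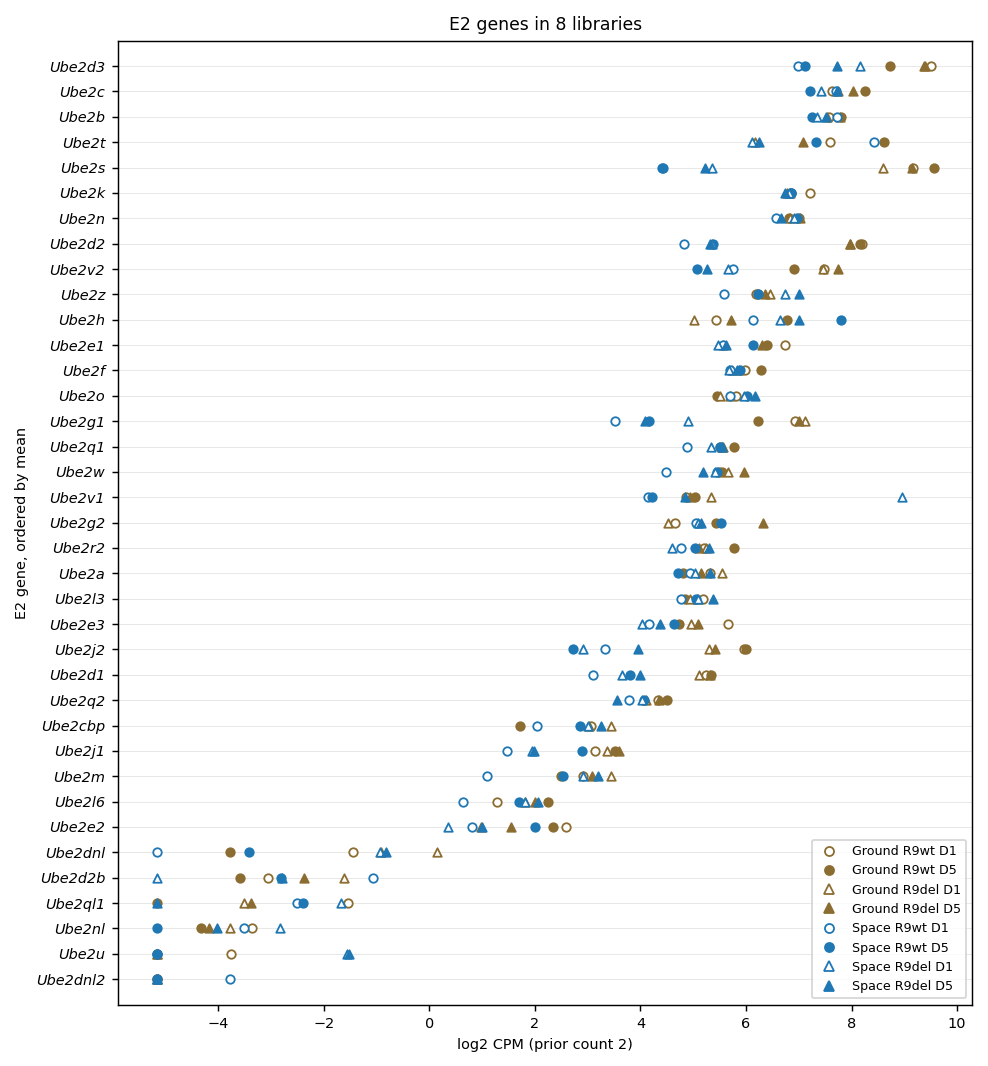
Log2 CPM (horizontal axis, prior count 2) of the E2 genes shown (rows, ordered by mean) in each of the 8 libraries; brown is ground, blue is space, circles are R9wt, triangles are R9del, open symbols are D1 and filled symbols D5. The points at the far left are libraries with a count of 0. Ube2s, Ube2d2, Ube2g1 and Ube2j2 split by colour, and 1 Ube2v1 point (Space R9del D1) lies apart from the other 7.

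The comparison of space with ground asked whether E2 transcripts differed by location across both genotypes and durations. Of the 34 members tested, 7 were lower in space at an adjusted p under 0.05 and 0 were higher (edgeR quasi-likelihood test, 4 libraries against 4, Benjamini-Hochberg adjustment over 20473 genes). Over all tested genes, 6.33% were called, 5.32% lower and 1.01% higher, against 20.6% lower and 0% higher of the members. The 7 were Ube2s, Ube2d2, Ube2g1, Ube2j2, Ube2v2, Ube2d3 and Ube2d1. Counting instead every gene that changed 2-fold or more at an unadjusted p under 0.05, 8 members were lower (background 8.38%) and 1 was higher (background 2.58%). The median log2 fold change of the members was -0.40, against 0.01 for all genes, and 28 of 34 were below 0, against 49.1% of all genes.

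The members of the anaphase-promoting complex differed from each other. Ube2s (chr7:4759616-4763942, minus strand) had 573 CPM in R9wt D1, 752 in R9wt D5, 388 in R9del D1 and 569.8 in R9del D5 on the ground. In space it had 21.4 in R9wt D1, 21.3 in R9wt D5, 40.9 in R9del D1 and 37.2 in R9del D5. The highest space library thus lay far below the lowest ground library. The fold change was -4.24 on the log2 scale (SE 0.33, edgeR quasi-likelihood adjusted p = 6.94e-05), that is 18.9 times lower in space, and it was lower in 4 of 4 matched pairs, with log2 differences from -5.14 to -3.24. This was the largest fold change among the members.

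Ube2c (chr2:164595398-164604322, plus strand), which starts the chains that Ube2s extends, had 198 CPM in R9wt D1, 306 in R9wt D5, 214 in R9del D1 and 260.1 in R9del D5 on the ground. Its space values were 209, 149, 172 and 212 CPM in the same order. The groups overlapped, and the log2 fold change of -0.40 (SE 0.21) had an edgeR quasi-likelihood adjusted p of 0.353. It was lower in 3 of 4 pairs.

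Of the 7 tested members of the Ube2d and Ube2e group, 3 were called lower in space (background 5.32%). They were the Ube2d genes with moderate or high levels. These enzymes load ubiquitin for a wide set of RING ligases and have nearly the same protein. Ube2d2 (chr18:35931213-35966826) had 249 to 292 CPM in the 4 ground libraries and 28.4 to 41.2 CPM in the 4 space libraries, with a log2 fold change of -2.84 (SE 0.20, edgeR adjusted p = 5.32e-05). Space R9wt D1 was its lowest library, and the other three lay between 39.7 and 41.2 CPM. Ube2d3 (chr3:135101261-135130142) had 724 CPM in R9wt D1, 425 in R9wt D5, 672 in R9del D1 and 665 in R9del D5 on the ground, against 128, 139, 285 and 212 CPM in space. Its log2 fold change was -1.70 (SE 0.30, edgeR adjusted p = 0.0072). Ube2d1 (chr10:70717728-70748010) had 34.5 to 40.2 CPM on the ground and 8.56 to 15.98 CPM in space, with a log2 fold change of -1.58 (SE 0.25, edgeR adjusted p = 0.0037). The space and ground values did not overlap for any of these 3 genes, which were picked as called (background 9.37%).

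The related Ube2e genes had values on the same side but were not called. Ube2e3 had a log2 fold change of -0.83 (SE 0.26, edgeR adjusted p = 0.108) and its groups did not overlap. Ube2e2 had -0.84 (SE 0.50) and Ube2e1 -0.58 (SE 0.27). The low-count genes Ube2dnl, Ube2dnl2 and Ube2d2b had at most 1.08 CPM in any library.

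In the group of DNA damage and Lys63-linked chains, 1 of 7 members was called (background 6.33%). Ube2v2 (chr16:15552770-15594617) is a catalytically inactive partner of Ube2n, the E2 that builds Lys63-linked chains in damage tolerance. It had 179 CPM in R9wt D1, 121 in R9wt D5, 177 in R9del D1 and 215 in R9del D5 on the ground, and 53.7, 33.7, 50.4 and 38.4 CPM in space. The log2 fold change was -1.97 (SE 0.24, edgeR adjusted p = 8.59e-04). Ube2n, its catalytic partner, had 113 to 130.4 CPM on the ground and 95.2 to 125 CPM in space, with a log2 fold change of -0.15 (SE 0.17). Ube2a and Ube2b, the mammalian Rad6 proteins that work with Rad18 at stalled forks, had log2 fold changes of -0.21 (SE 0.24) and -0.21 (SE 0.18). Ube2t and Ube2w had -0.29 (SE 0.60) and -0.50 (SE 0.25), and neither passed.

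Among the E2s of cullin ligases and NEDD8, Ube2g1 (chr11:72420785-72499983), which extends chains for CUL4 ligases, was the 1 of 4 members called (background 6.33%). It had 121 CPM in R9wt D1, 74.8 in R9wt D5, 139 in R9del D1 and 128 in R9del D5 on the ground, against 11.5, 17.9, 29.8 and 17.1 CPM in space. The log2 fold change was -2.60 (SE 0.33, edgeR adjusted p = 9.65e-04). The highest space value was below the lowest ground value. The NEDD8 enzymes Ube2m and Ube2f had log2 fold changes of -0.40 (SE 0.44) and -0.21 (SE 0.19), and Ube2r2, a CDC34 relative, had -0.40 (SE 0.24).

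Of the 3 E2s of endoplasmic reticulum-associated degradation, Ube2j2 (chr4:155317940-155333713), a membrane-anchored enzyme, was called (1 of 3, background 6.33%). With groups this small, 1 call sets no group apart from the background. It had 62.0 CPM in R9wt D1, 64.2 in R9wt D5, 39.5 in R9del D1 and 42.7 in R9del D5 on the ground, against 9.97, 6.55, 7.50 and 15.4 CPM in space. The log2 fold change was -2.40 (SE 0.33, edgeR adjusted p = 0.00163). Ube2j1, the other membrane-anchored member, had 8.82 to 12.1 CPM on the ground and 2.73 to 7.37 CPM in space. Its groups did not overlap either, but the log2 fold change of -1.26 (SE 0.36) had an edgeR adjusted p of 0.0724. With the matched libraries as blocks it was called, at an adjusted p of 0.0309. Ube2g2, a soluble enzyme recruited to the same membrane, had -0.20 (SE 0.38).

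**Figure D2:**
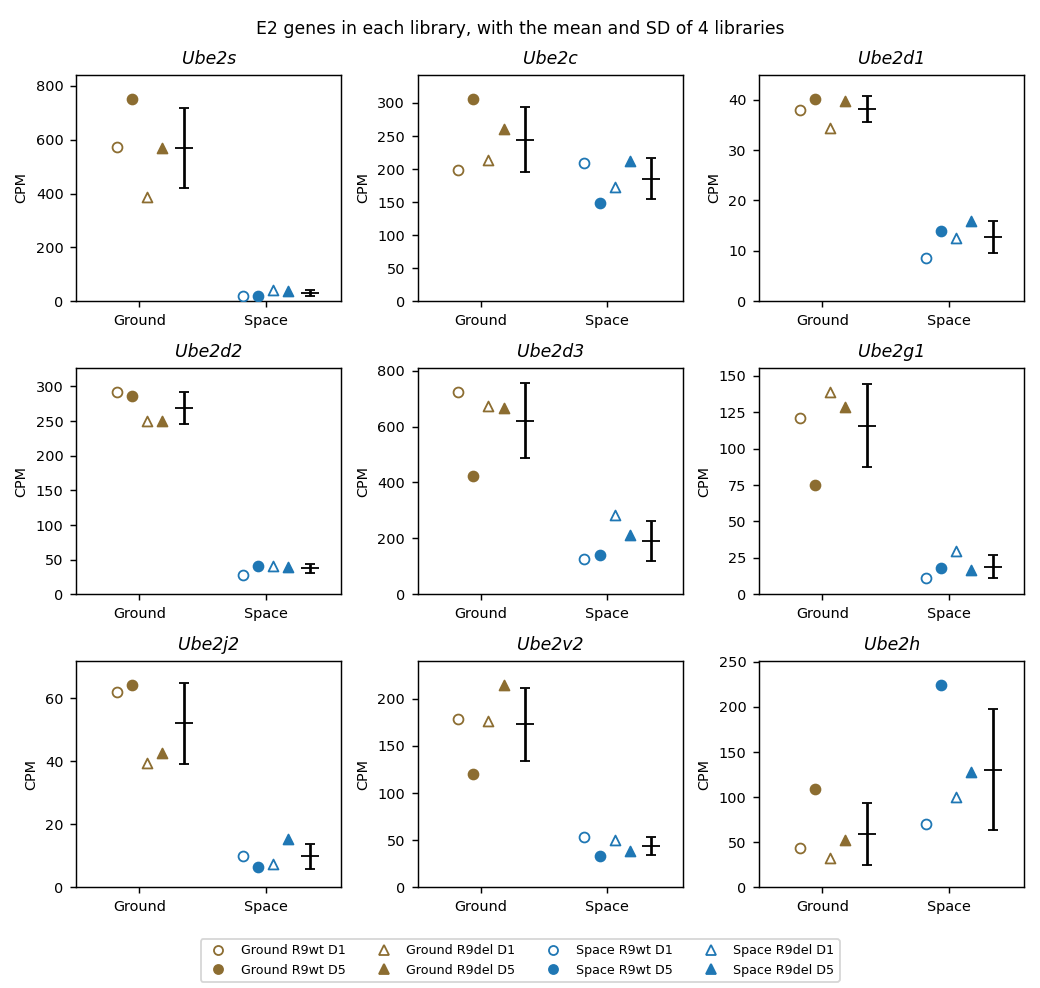
CPM (vertical axes, from 0) of the 7 E2 genes called lower in space and of Ube2c and Ube2h, in 4 ground (brown) and 4 space (blue) libraries; circles are R9wt, triangles R9del, open symbols D1 and filled symbols D5, and the bar at the right of each group is its mean ± SD. The groups overlap for Ube2c and Ube2h and are apart for the 7 others (background 9.37%). These 7 were picked as called in the same comparison, so this is no separate support. Ube2s, for example, had 388 to 752 CPM on the ground against 21.3 to 40.9 CPM in space.

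The members with the highest positive fold changes were Ube2v1, Ube2h and Ube2ql1, and none was called. Ube2h (chr6:30161289-30254539), the E2 of the CTLH ligase, had 43.3 CPM in R9wt D1, 109 in R9wt D5, 32.5 in R9del D1 and 52.2 in R9del D5 on the ground. In space it had 69.9, 224 and 101 CPM in R9wt D1, R9wt D5 and R9del D1, and 128 CPM in R9del D5. Each space library was above its matched ground library, but the groups overlapped because Ground R9wt D5 was high. The log2 fold change was 1.14 (SE 0.44, edgeR adjusted p = 0.194). With the matched libraries as blocks it was 1.16 (SE 0.21, edgeR adjusted p = 0.013), and without Ground R9wt D5 it was 1.61 with an edgeR adjusted p of 0.0485. Without Space R9wt D5, its highest library, it was 0.76 with an edgeR adjusted p of 0.424. Over all its alternatives the adjusted p lay between 0.013 and 0.424. Ube2ql1 had at most 27 counts in any library, and its log2 fold change was 0.43 (SE 1.20).

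Ube2v1, the other inactive partner of Ube2n, stood apart in 1 library. It had 495.7 CPM in Space R9del D1 and 17.7 to 40.7 CPM in the other seven. GENCODE has a second gene here, ENSMUSG00000089739, named Tmem189, which runs through from the upstream Tmem189 exons into exons of Ube2v1 on the same strand. Exons of other genes cover 69.1% of the Ube2v1 exon length. That read-through gene had 81 counts in Space R9del D1 and 16857 to 36888 counts in the other libraries, while Ube2v1 had 34875 counts in Space R9del D1 and 1142 to 2936 in the others. The share of their joint counts on Ube2v1 was 99.8% in that library and 5.55% to 8.42% in the other seven. The 2 counts summed gave 497 CPM in Space R9del D1, within the 269 to 519.5 CPM of the other libraries. With the counts summed, an alternative chosen after seeing the data, the log2 fold change between space and ground went from 2.07 (SE 1.01, edgeR adjusted p = 0.315) to -0.19 (SE 0.23, edgeR adjusted p = 0.74). Without Space R9del D1 the fold change of Ube2v1 alone was -0.61, and with the matched libraries as blocks it was 0.28. In Space R9del D1 the count of Ube2v1 was thus high where that of the read-through gene was low.

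**Figure D3:**
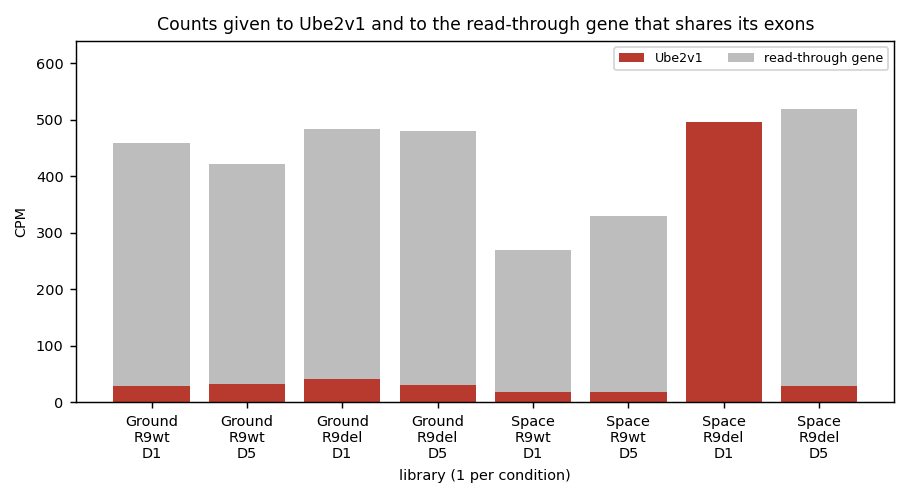
CPM (vertical axis) counted on Ube2v1 (red) and on the read-through gene that shares its exons (grey), stacked, for the 8 libraries (horizontal axis, 1 per condition). Ube2v1 takes 99.8% of the joint counts in Space R9del D1 and 5.55% to 8.42% in the others, while the stacked total there, 497 CPM, lies within the range of the others.

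The remaining members had smaller fold changes by location. Ube2k, a maker of Lys48-linked chains, had -0.12 (SE 0.17), and Ube2l3, which serves HECT and RBR ligases, had 0.07 (SE 0.21). Exons of genes on the opposite strand cover 43.7% of the Ube2l3 exon length. Ydjc, 1 of these genes, had 18.8 to 38.5 CPM on the ground and 0.508 to 2.33 CPM in space. The part of its reads in the Ube2l3 value was not tested. Ube2z, which accepts ubiquitin from the E1 Uba6, had 0.17 (SE 0.29), and Ube2o, a large enzyme with both E2 and E3 activity, had 0.35 (SE 0.19). The values of all 27 members not called lay between -1.26 and 2.07. In all, 11 members had space values that were all below the ground values (background 9.37%) and 0 had them all above (background 5.07%). The 4 of these that were not called were Ube2e3, Ube2j1, Ube2q2 and Ube2w. An exact permutation test of 4 against 4 libraries cannot go below p = 0.0286, the two-sided value that each of the 11 had.

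**Figure D4:**
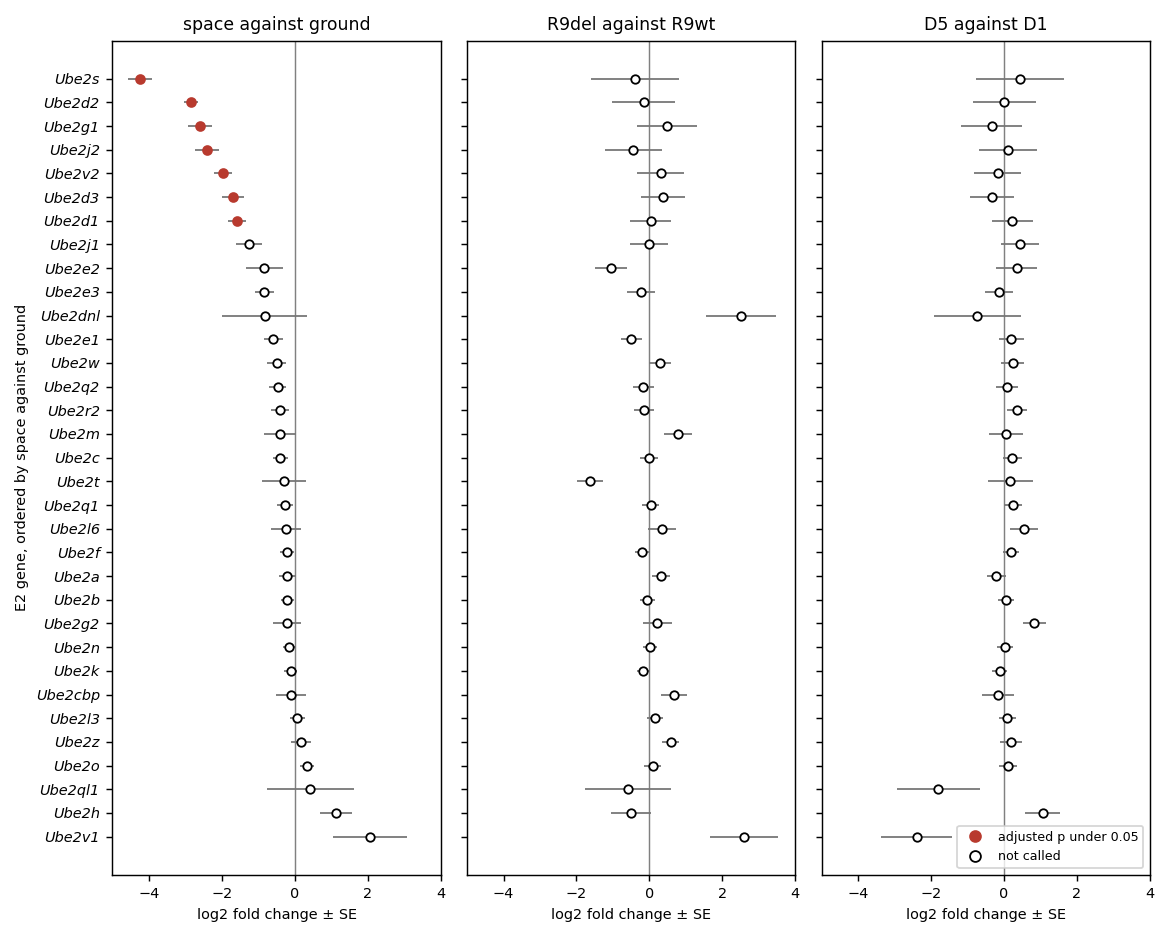
Log2 fold change ± SE (horizontal axes) of the tested E2 genes shown (rows, in the order of the first panel) for space against ground, R9del against R9wt and D5 against D1, each from 4 libraries against 4; red points have an adjusted p under 0.05. There are 7 red points in the first panel, from -4.24 for Ube2s to -1.58 for Ube2d1, and 0 in the other panels.

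Several of the called members have near copies in the genome, so reads could have been placed at more than 1 site. The share of all 50-base stretches of the exons that also occur elsewhere in mm9 was 97.3% for Ube2s, 53.6% for Ube2d2, 34.7% for Ube2v2, 27.9% for Ube2d3 and 13.2% for Ube2j2. It was 2.20% for Ube2g1 and 0.0736% for Ube2d1. A share over 10% was found for 5 of the 7 called members and 7 of the 27 others. Across the 34 members, the Spearman correlation of this share with the log2 fold change was -0.26 (Pearson -0.34), a description over genes measured in the same libraries.

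Annotated genes that share exon stretches with a member, do not overlap its position and have counts above 0 were read in the same way. Of 5 for called members, 4 had space values all below the ground values (background 9.37%), and of 11 for the other members, 3 did. None of either had them all above (background 5.07%). Gm9762, a near copy of Ube2d2 on chromosome 3, had 1.14 to 1.97 CPM in space and 19.8 to 37.7 CPM on the ground. Gm6565, a near copy of Ube2v2, had 5.66 to 10.6 and 11.2 to 20.2 CPM, and Gm5801, a near copy of Ube2j2, had 0.284 to 0.453 and 1.14 to 1.99 CPM. Spopl, which shares stretches with Ube2d3, had 16.2 to 20.05 and 40.7 to 42.02 CPM. Gm6361, another near copy of Ube2v2, had 0.131 to 0.314 CPM in space and 0.224 to 0.302 CPM on the ground, and its groups overlapped. How reads were shared between members and copies was not tested. Median exon GC content was 43.6% for the 7 called members and 49.5% for the 27 others, with ranges of 35.04% to 58.5% and 38.2% to 60.4%. Across the 34 members, the Spearman correlation of exon GC content with the log2 fold change was 0.37 (Pearson 0.22), likewise a description.

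**Figure D5:**
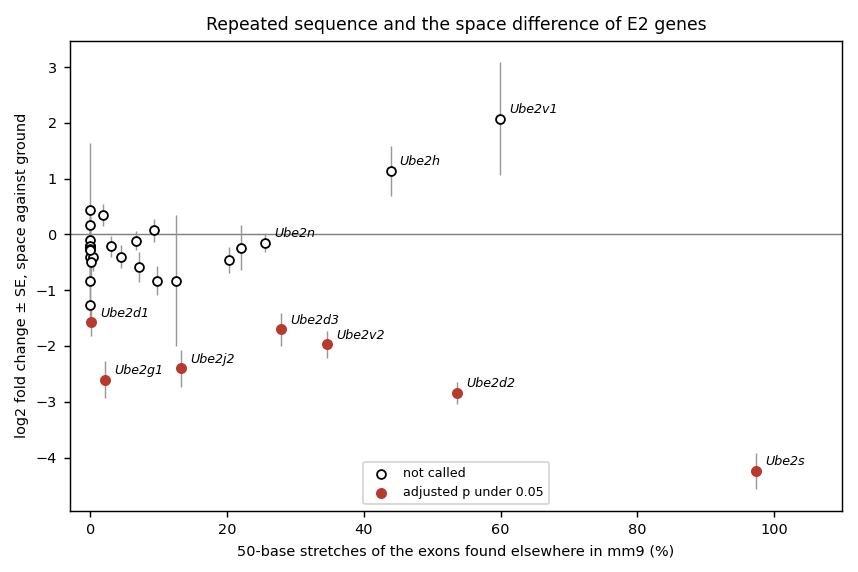
Log2 fold change ± SE between space and ground (vertical axis) against the percentage of 50-base exon stretches found elsewhere in mm9 (horizontal axis) for the tested E2 genes shown; red points have an adjusted p under 0.05. Called genes lie from 0.0736% (Ube2d1) to 97.3% (Ube2s).

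The 4 matched pairs of space and ground libraries were also read singly, with 33 members at 1 CPM or more in some library and no test. In R9wt D1, 14 members were at least 2-fold lower (background 19.8%) and 0 higher (background 14.1%). In R9wt D5, 9 were lower (background 19.3%) and 2 higher (background 16.8%). In R9del D1, 9 were lower (background 12%) and 2 higher (background 9.09%), and in R9del D5, 9 were lower (background 15.1%) and 1 higher (background 7.85%). Ube2dnl is among the 33 only through its 1.08 CPM in Ground R9del D1, so its place among the lower ones in R9del D1 follows from that limit. The 7 called genes were among the lower ones in every pair. Ube2h was at least 2-fold higher in every pair but R9wt D1. The other higher member in R9del D1 was Ube2v1, in the library where the read-through gene was low.

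The comparison of R9del with R9wt asked whether loss of Rad9 went with other E2 levels. With edgeR's quasi-likelihood test 0 of 34 members were called, against 1.82% of all 20473 genes (1.05% higher and 0.772% lower). At an unadjusted p under 0.05 there were 5 members (14.7%), against a background of 20.3%, and DESeq2's Wald test called 1. With the additional 2-fold limit, 2 were higher (5.88%, background 6.19%) and 2 lower (5.88%, background 7.62%). The 2 higher ones were Ube2dnl and Ube2v1, which are also among the 5. Ube2dnl passed the filter on low counts through the R9del libraries, in which it was high. Ube2v1 had 2.60, and 0.42 with the read-through gene added. Neither is read as support for these counts. The median log2 fold change of the members was 0.0013, against -0.06 for all genes, and 17 lay on each side of 0.

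Ube2t (chr1:136859142-136870739), which monoubiquitinates FANCD2 and FANCI together with Fancl, had the largest negative value. It had 193 CPM in Ground D1, 392 in Ground D5, 345 in Space D1 and 160.3 in Space D5 in R9wt cells. The R9del values were 72.2, 136, 69.6 and 76.1 CPM in the same order. All R9del libraries lay below all R9wt libraries, and the value was lower in 4 of 4 pairs. The log2 fold change was -1.62 (SE 0.35, unadjusted p = 0.00103) and the edgeR adjusted p of 0.0509 missed the threshold. With the matched libraries as blocks it was -1.58 (SE 0.23, edgeR adjusted p = 0.0128), and DESeq2's Wald test gave an adjusted p of 0.0023. Over all its alternatives the adjusted p lay between 0.0023 and 0.162.

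The other members named by genotype were at various levels, and none was called. Ube2e2 had 4.20 ± 1.85 CPM in R9wt and 2.02 ± 0.68 CPM in R9del (SD, n = 4 libraries each), with a log2 fold change of -1.05 (SE 0.45, edgeR adjusted p = 0.227). Ube2dnl had 0.497 to 1.08 CPM in R9del and 0 to 0.337 CPM in R9wt, a log2 fold change of 2.50 (SE 0.96, edgeR adjusted p = 0.187), which was 4.09 without Ground R9wt D1 (edgeR adjusted p = 0.0561). Ube2m, the NEDD8 E2, had 0.78 (SE 0.39) and was higher in 4 of 4 pairs. Ube2v1 had 2.60 (SE 0.92, edgeR adjusted p = 0.16), which was 0.44 without Space R9del D1 and 0.42 (SE 0.21) with the read-through gene added. Ube2s and Ube2c had -0.40 (SE 1.21) and -0.01 (SE 0.25), and Ube2ql1 had -0.58 (SE 1.18). Groups did not overlap for 2 members higher (background 7.1%) and 2 lower (background 7.19%) in R9del, namely Ube2dnl and Ube2z, and Ube2t and Ube2k. Ube2dnl had 32 to 72 counts in R9del and 0 to 29 in R9wt, so it passed the filter on low counts through the libraries in which it was high, and it is not read as support for the count. Ube2z had 101 ± 20.9 CPM in R9del and 67.6 ± 13.2 CPM in R9wt (SD, n = 4 libraries each), a log2 fold change of 0.58 (SE 0.24, unadjusted p = 0.0347, edgeR adjusted p = 0.211), and was higher in 4 of 4 pairs.

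In single pairs of R9del against R9wt, Ube2t was at least 2-fold lower in all 4. On the ground at D1, 1 of 33 members was higher (background 10.9%) and 3 were lower (background 11.8%), and at D5, 2 were higher (background 16.5%) and 2 lower (background 15%). In space at D1, 7 were higher (background 18.3%) and 1 lower (background 15.9%), and at D5, 2 were higher (background 11.8%) and 1 lower (background 13.5%). The 7 higher ones in space at D1 include Ube2v1, through Space R9del D1. Ube2dnl was among the higher members in every pair and was the single one on the ground at D1. With its place among the 33 set by Ground R9del D1, this is not read as a result.

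For D5 against D1, edgeR's quasi-likelihood test called 0 members, and 0.0% of all genes, and DESeq2's Wald test also called 0 members. At an unadjusted p under 0.05 there were 2 members (background 4.37%), Ube2g2 and Ube2v1. With the additional 2-fold limit, 0 were higher (background 2.43%) and 1 was lower (2.94%, background 1.06%). The lower one was Ube2v1, which had 0.04 with the read-through gene added, so it is not read as support for these counts. Ube2g2 (chr10:77085020-77108738) had 25.3 CPM in Ground R9wt, 22.9 in Ground R9del, 33.03 in Space R9wt and 33.9 in Space R9del at D1. At D5 it had 42.9, 79.7, 46.1 and 35.5 CPM. The lowest D5 value was just above the highest D1 value, and among the 34 tested members it was the only one whose groups did not overlap (background 1.68% higher and 1.17% lower). Ube2nl, which was not tested, had 3 to 8 counts in the D1 libraries and 0 to 2 in the D5 libraries. The log2 fold change was 0.83 (SE 0.31, unadjusted p = 0.0249, edgeR adjusted p = 0.9996) for Ube2g2. Without Ground R9del D5, its highest library, it was 0.51 with an edgeR unadjusted p of 0.115. Exons of Mir1930 and Sumo3 cover 10.3% of the Ube2g2 exon length.

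Ube2h was higher at D5 in 4 of 4 pairs, with 128 ± 71.6 CPM against 61.6 ± 30.4 CPM (SD, n = 4 libraries each) and a log2 fold change of 1.06 (SE 0.48), which was 0.62 without Space R9wt D5. Ube2l6, the ISG15 E2, had 0.56 (SE 0.39), and 0.34 without Space R9wt D1. Ube2v1 had -2.39 (SE 0.97), which was -0.07 without Space R9del D1 and 0.04 (SE 0.26) with the read-through gene added. Ube2ql1 and Ube2dnl, both at low counts, had -1.80 (SE 1.14) and -0.73 (SE 1.19). Without Space R9wt D5 the value of Ube2ql1 was -3.07. Ube2s had 0.43 (SE 1.21) and Ube2c 0.22 (SE 0.26). In single pairs, 6 of 33 members were at least 2-fold higher in Space R9wt (background 14.9%) and 1 lower (background 12.7%), and 1 was higher (background 6.31%) and 1 lower (background 8.09%) in Space R9del. The lower one in Space R9del was Ube2v1, through its high count in Space R9del D1. In Ground R9wt 2 were higher (background 15%) and 2 lower (background 14.1%), and in Ground R9del 1 was higher (background 7.04%) and 1 lower (background 5.69%). The lower one was Ube2dnl, whose place among the 33 rests on Ground R9del D1, the higher library of that pair.

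Whether the differences by location depended on genotype or duration was tested directly. In 36 members tested among 22561 genes, no interaction was called by edgeR's quasi-likelihood test. For location by genotype 0 members were called (background 0.0%), for location by duration 0 (background 0.00443%) and for genotype by duration 0 (background 0.0%), and DESeq2's Wald test also called 0 in each. The counts at an unadjusted p under 0.05 were 3 (8.33%, background 3.08%), 2 (5.56%, background 6.43%) and 2 (5.56%, background 4.33%). Without the third variable as a covariate they were 3, 0 and 1. They also changed when some single libraries were left out. The 3 for location by genotype were Ube2s, Ube2u and Ube2v1. Ube2u had 22 and 19 counts in the Space R9del libraries and at most 4 in the others. It passed the filter on low counts through the libraries in which it was high, and is not read as support for the count. Ube2v1 was also 1 of the 2 for genotype by duration. It was high in Space R9del D1 alone, where the read-through gene was low. Ube2s had the smallest p for location by genotype, with an interaction of 1.35 (SE 0.36, unadjusted p = 0.00668, edgeR adjusted p = 1.0). Its space levels were lower in R9wt (21.3 and 21.4 CPM) than in R9del (37.2 and 40.9 CPM). Ube2t had the smallest p for location by duration, with -1.48 (SE 0.44, unadjusted p = 0.00982, edgeR adjusted p = 0.742).

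The partners of the E2s were counted from lists in the same comparison of space with ground, where 5.32% of all genes were called lower and 1.01% higher. Of 8 genes that encode E2 or E2-like proteins under other names, 2 were lower (25%) and 0 higher. They were Cdc34, the E2 of SCF ligases, with -1.74 (SE 0.25, edgeR adjusted p = 0.00249), and Atg3, the E2-like enzyme of autophagy, with -1.995 (SE 0.30, edgeR adjusted p = 0.00317). Of 12 genes for ubiquitin and related modifiers, 1 was lower (8.33%) and 0 higher. It was Sumo2, with -1.52 (SE 0.36, edgeR adjusted p = 0.0344).

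Of 45 E3 partners, 3 were lower (6.67%, background 5.32%) and 1 higher (2.22%, background 1.01%), which is near the background. Fzr1 (Cdh1), a substrate adaptor of the anaphase-promoting complex, had -2.83 (SE 0.28, edgeR adjusted p = 2.28e-04). Anapc2, the cullin subunit of that complex, had -0.78 (SE 0.17, edgeR adjusted p = 0.0198). Stub1, a chaperone-linked ligase that works with Ube2d enzymes, had -1.43 (SE 0.28, edgeR adjusted p = 0.0127), and Rnf40, a partner of Ube2a and Ube2b on histone H2B, had 0.78 (SE 0.20, edgeR adjusted p = 0.043). Of 25 deubiquitinases and related proteases, 1 was lower (4%, background 5.32%) and 1 higher (4%, background 1.01%). This list includes Senp1, Senp2, Senp3, Senp5, Senp6, Cops5 and Usp18, which act on other modifiers. Usp1 was lower at -1.02 (SE 0.21, edgeR adjusted p = 0.0164) and Bap1 was higher at 0.88 (SE 0.23, edgeR adjusted p = 0.0486). The list medians were -0.15 for E2-like genes, -0.37 for ubiquitin and related modifiers, 0.09 for E3 partners and 0.15 for deubiquitinases and related proteases. None of these genes was called for R9del against R9wt or D5 against D1.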

How the data were processed

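RNA of 8 mESC libraries, 1 per condition, was sequenced in paired-end mode. Alignment by the authors was to mm9 with TopHat 2.0.9, per the submitters' processing notes, and they deposited raw read counts per gene for 50686 Ensembl identifiers. The counting program, the annotation behind the counts and the use of strand are not given in the sources used here, so how reads of overlapping genes, antisense genes and near copies were assigned is unknown. GENCODE (NCBIM37, mm9) names 64.6% of the identifiers and 97.1% of the counts.

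Counts were normalized with TMM (edgeR 4.0.16, R 4.3.3). Groups of 4 libraries were compared with edgeR's quasi-likelihood test, without covariates, on genes kept by filterByExpr with a minimum count of 10, and called at a Benjamini-Hochberg adjusted p under 0.05 over all genes. Interactions used the same test with the third variable as a covariate, on 22561 genes. Single pairs were read as log2 CPM with a prior count of 2. The libraries differ in the other variables and came from 1 culture each, so p-values measure only the spread between these libraries. The code was tested on simulated counts.

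Libraries that match in the other variables deviated together: correlations of their deviations from the group means were 0.284 to 0.610 for space and ground, 0.350 to 0.488 for genotype and 0.375 to 0.576 for duration, with other pairings at -0.124, -0.129 and -0.152. The pairing comes from the labels. Blocking on the matched pairs was an alternative, beside other scalings, no filter, an additive model, DESeq2 1.42.0 and leaving out each library.

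Named genes were Ube2s, Ube2c, members called in a comparison, the 3 highest and 3 lowest fold changes per comparison, the 3 highest levels per exon length, members at 3 counts or fewer, and up to 4 called genes per partner list. Others named, such as Ube2j1, Ube2e3, Ube2u and Ube2g2's overlap, were added to account for all members. The members, lists and tests were chosen with earlier results of these data known. Values of 1 member and of the E1 list are not reported here, and that member is left out of the plots.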

Additional observations from a re-analysis of the deposited data

Results flagged for a closer look

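For each comparison, the genes used here were Ube2s, Ube2c, the called members and those with the highest and lowest fold changes. Each gene's 4 libraries of a group were tested for 1 library far from the others with Dixon's criterion at 95%. In 54 such groups there were 6 marks, and chance alone marks about 1 in 20 groups. Groups of a gene share libraries, so marks of the same gene are not independent. Other members named above were not tested in this way, so the marks do not cover them. Ube2k, for example, had 149 CPM in Ground R9wt D1, against 115.6 to 116.03 CPM in the other R9wt libraries, and was not tested.

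Ube2v1 gave 3 of the 6, all for Space R9del D1, where it had 495.7 CPM. The other space libraries had 17.7 to 28.8 CPM, the other R9del libraries 28.8 to 40.7 CPM and the other D1 libraries 17.7 to 40.7 CPM. In the same library the overlapping read-through gene had 1.15 CPM.

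Ube2t had 136 CPM in Ground R9del D5, against 69.6 to 76.1 CPM in the other R9del libraries. Ube2dnl had 1.08 CPM in Ground R9del D1, against 0.497 to 0.537 CPM in the other R9del libraries. Ube2d2 had 28.4 CPM in Space R9wt D1, against 39.7 to 41.2 CPM in the other space libraries.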

How the results depend on the processing

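For space against ground, the 7 called genes were called in every alternative, and the number called was 7 to 9. Ube2j1 was added (lower) by DESeq2's Wald test, the additive model, blocking on the matched pairs and leaving out Space R9wt D5, and Ube2h (higher) by the additive model, the block and leaving out Ground R9wt D5. For R9del against R9wt the count went from 0 to 1, always Ube2t, with DESeq2's Wald test, the additive model, the matched pairs as a replicate block and, among fits without 1 library (0 to 1), without Ground R9wt D1. The block changed no other call. For D5 against D1 and for the interactions the count was 0 throughout. In single pairs of space against ground, DESeq2 size factors or library size alone gave 13 lower in R9wt D1 and 8 lower in R9wt D5. For R9del against R9wt at D5, library size alone gave 3 higher and 1 lower on the ground. In space at D5, a prior count of 0.5 gave 2 lower. The other single-pair counts did not change.

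Of 381 alternative values for 27 named fold changes, 355 kept direction and side of the threshold, 7 crossed it and 16 changed sign, none of them called. The other 3, for Ube2v1, kept direction, but DESeq2's Wald test gave them no p. For R9del against R9wt, Ube2c (-0.0065) became 0.0083 with DESeq2's Wald test and with its size factors, 0.0701 with library size alone and 0.026 with the block, and ranged from -0.14 to 0.21 without 1 library (0.21 without Ground R9wt D5, 0.086 without Space R9del D1). Ube2s (-0.40) became 0.20 with the additive model, 0.19 with the block and 0.34 without Ground R9wt D5 (range without 1 library -1.12 to 0.34), and Ube2ql1 became 0.022 without Ground R9wt D1 (-1.81 to 0.022). For D5 against D1, Ube2s became -0.29 without Ground R9wt D5 (-0.29 to 1.20), Ube2dnl 0.042 without Ground R9del D1 (-1.21 to 0.042) and Ube2v1 0.038 with the read-through gene's counts added. For space against ground, Ube2ql1 became -0.083 without Space R9del D1 (-0.083 to 1.80) and Ube2v1 -0.61 without it (-0.61 to 2.46) or -0.19 with the counts added. The causes were not tested. Depth limits Ube2dnl2, Ube2nl, Ube2u, Ube2d2b, Ube2ql1 and Ube2dnl, all at few counts.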
